A study of Mus musculus with 6 samples.

Results

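The cyclins, the cyclin-dependent kinases (CDKs), the CDK inhibitors and the RB and E2F proteins that they act on were followed in liver of growth hormone-releasing hormone knockout (GHRH-KO) mice. The group was given as a list of 40 genes, of which 39 had a probe set that the array annotation assigns to 1 gene and 36 lay above the intensity filter, out of 12469 genes above that filter. Each gene was read by the probe set with the highest mean over all arrays. Ccnb1 has no such probe set in the annotation used, and no value is given for it. Liver RNA of 3 male GHRH-KO mice (replicates 4, 5 and 6) and 3 male wild-type littermates (control replicates 1, 2 and 3) was hybridized to Affymetrix Mouse Genome arrays, 1 array per mouse. The methods give an age of 10 months. All mice came from 1 closed colony on a mixed C57BL6 and 129SV background and were fasted for 6 to 8 h before liver was taken. The labels give the genotype as Ghrh-KO with no tissue restriction, and name no agent for either group.

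All values are RMA values, a background-corrected and quantile-normalized brightness on the log2 scale, so that a difference of 1 is a doubling. A gene was called when the limma fit over all probe sets gave a false discovery rate (the adjusted p) under 0.05 and a fold change above 1.5 or below 0.67. Ghrh itself is transcribed in the hypothalamus and its probe set read between 4.40 and 4.57 in the GHRH-KO livers and between 4.41 and 4.75 in the control livers, so it does not check the genotype here. Its highest value, 4.75, served as a mark of background, and a difference is a lower bound where the lower group's mean lay at or under it. The array medians lay between 4.95 and 4.99. GHRH-KO replicate 5 and control replicate 2 stood apart from the others, with an interquartile range of deviations from the probe set median of 0.357 and 0.316, against 0.185 to 0.249 on the other 4 arrays, and values without them are given beside the differences that moved most. These are extracts of whole liver, in which fewer cells of a type and less RNA per cell cannot be told apart.

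As background, a cyclin binds and activates its CDK, and the pair phosphorylates RB and its relatives, which frees E2F factors to switch on genes of DNA replication. D-type cyclins act with CDK4 and CDK6 early in G1, E-type cyclins with CDK2 at the entry to S phase, and A- and B-type cyclins with CDK2 and CDK1 in S phase and mitosis. The INK4 inhibitors (Cdkn2 genes) bind CDK4 and CDK6, the CIP/KIP inhibitors (Cdkn1 genes) bind most cyclin-CDK pairs, and the small CKS subunits dock on CDKs. The adult hepatocyte is mostly quiescent, and cyclin D1 is known for its induction when liver regenerates.

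Of the 36 members tested, 2 rose in GHRH-KO livers, Ccnd1 and Cdkn2c, and 1 fell, Cks1b. Over all 12469 genes, 0.786% were called higher and 0.97% lower by the same rule. Direction was even among the members, with 18 positive and 18 negative differences and a median log2 fold change of -0.01, beside 0.003 over all genes. The median size of the difference was 0.23, beside 0.18 over all genes. At an unadjusted p under 0.05, 5 members were higher and 5 lower, against a background of 9.15% and 10.1% of all genes. The 3 GHRH-KO arrays lay entirely above the 3 control arrays for 7 members and entirely below for 7, where 12.7% and 15.7% of all genes did so. Ccnb2, among the higher members in both counts, passed the intensity filter only through its GHRH-KO arrays. By class, the median log2 fold change was 0.38 over 5 G1 cyclins, 0.01 over 3 cyclins of S and G2/M phase, -0.05 over 7 other cyclins, -0.26 over 8 kinases, 0.17 over 5 inhibitors, -0.86 over 2 CKS subunits, 0.18 over 3 RB proteins and -0.05 over 3 E2F factors.

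**Figure D1:**
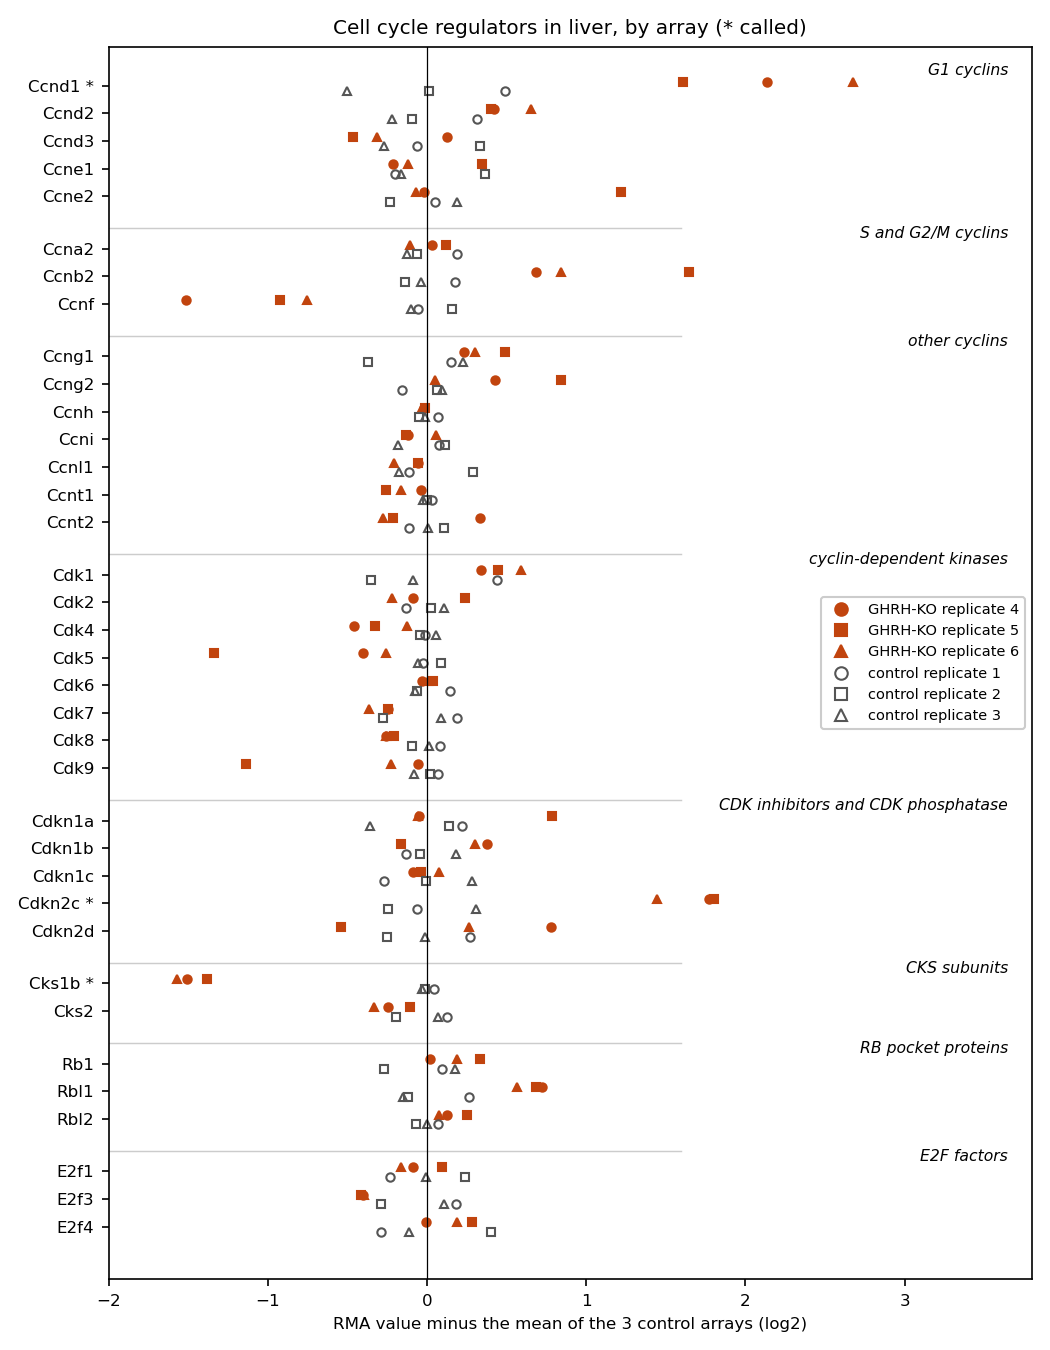
RMA value of each of the 36 members tested on each of 6 arrays, minus the mean of the 3 control arrays (log2 scale). Filled symbols are GHRH-KO arrays, open symbols are control arrays, and an asterisk marks the 3 called genes: Ccnd1 and Cdkn2c with all GHRH-KO arrays to the right of all control arrays, and Cks1b with all of them to the left.

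Among the G1 cyclins, the D-type cyclin Ccnd1 rose. Ccnd1, on chromosome 7, encodes cyclin D1, the partner of CDK4 and CDK6 that carries growth signals into G1. It read 9.48, 8.95 and 10.02 in the GHRH-KO livers and 7.84, 7.36 and 6.85 in the control livers. The lowest GHRH-KO liver lay above the highest control liver, and both groups spread by about 1 log2 unit between their extremes. The difference was 2.14 on the log2 scale (SE 0.33, 95% interval 1.36 to 2.91), a 4.40-fold higher level, with an adjusted p of 0.0302 in limma. Another 2 probe sets of Ccnd1 differed by 2.00 (adjusted p = 0.0168, limma, called) and by 1.92 (adjusted p = 0.114, limma, not called). The call of Ccnd1 was lost without GHRH-KO replicate 4 (adjusted p = 0.0807), GHRH-KO replicate 6 (0.0878), control replicate 2 (0.121) or control replicate 3 (0.0928), and with both GHRH-KO replicate 5 and control replicate 2 left out (0.0904), while its log2 fold change stayed between 1.87 and 2.41.

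Ccnd2, the cyclin D paralog, read 7.63, 7.60 and 7.86 in the GHRH-KO livers and 7.52, 7.11 and 6.99 in the control livers. The groups did not overlap, but the nearest arrays were less than 0.1 apart, and the difference of 0.49 (95% interval 0.10 to 0.89) was not called (adjusted p = 0.193, limma). All 6 Ccnd2 probe sets tested were positive, from 0.17 to 0.49. Ccnd3, the third D-type cyclin, had overlapping groups and a difference of -0.22 (95% interval -0.72 to 0.28), with other probe sets at -0.19 and 0.30. Ccne1, an E-type cyclin, ran from 5.87 to 6.43 in the GHRH-KO livers and from 5.89 to 6.45 in the control livers. Its groups covered the same range. Ccne2, the other E-type cyclin, read 4.78, 6.02 and 4.73 in the GHRH-KO livers and 4.85, 4.57 and 4.99 in the control livers. Its positive difference of 0.38 came from GHRH-KO replicate 5 alone, since the other 2 GHRH-KO livers lay within the control range, and it was -0.05 without that array.

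Among the CDK inhibitors, Cdkn2c rose, and none of the other 4 above the filter was called. Cdkn2c, on chromosome 4, encodes p18INK4c, an inhibitor of CDK4 and CDK6, the kinases that cyclin D1 activates. It read 8.30, 8.33 and 7.97 in the GHRH-KO livers and 6.47, 6.29 and 6.83 in the control livers. The groups lay more than 1 log2 unit apart at their nearest arrays. The difference was 1.67 (SE 0.18, 95% interval 1.25 to 2.09), a 3.19-fold higher level, with an adjusted p of 0.00792 in limma. Only 1 probe set reads Cdkn2c. Its call was kept with any 1 array left out (adjusted p at most 0.0368) and was lost with both GHRH-KO replicate 5 and control replicate 2 left out, where the difference was 1.49 and the adjusted p 0.060.

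Cdkn2d, which encodes p19INK4d, read 6.45, 5.13 and 5.93 in the GHRH-KO livers and 5.94, 5.42 and 5.66 in the control livers. The GHRH-KO livers lay on both sides of the control range, and the difference of 0.17 (95% interval -0.59 to 0.93) was 0.52 without GHRH-KO replicate 5. The remaining INK4 genes, Cdkn2a and Cdkn2b, had means of 3.78 and 3.70 in the GHRH-KO livers and 3.75 and 3.57 in the control livers, all under the background mark, and no fold is given for them. Cdkn3, which encodes a phosphatase that acts on CDKs, was also at background in both groups, with means of 4.61 in GHRH-KO and 4.29 in control livers. None of these 3 genes passed the intensity filter. Among the CIP/KIP genes, Cdkn1a (p21, also a target of p53) read 6.29, 7.13 and 6.29 in the GHRH-KO livers and 6.56, 6.48 and 5.98 in the control livers. Only GHRH-KO replicate 5 lay above the control range, and the difference of 0.23 was -0.06 without it. The second Cdkn1a probe set differed by -0.21, with overlapping groups. Cdkn1b (p27) and Cdkn1c (p57) had overlapping groups, with differences of 0.17 (95% interval -0.24 to 0.59) and -0.02 (95% interval -0.39 to 0.36).

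Cks1b, on chromosome 3, fell in GHRH-KO livers and was the member with the smallest p. It encodes the CDK subunit CKS1, which also serves as a cofactor of the SCF-SKP2 ubiquitin ligase in the breakdown of p27. It read 9.06, 9.19 and 9.0 in the GHRH-KO livers and 10.61, 10.56 and 10.54 in the control livers. The arrays of each group lay within 0.2 of each other, and the groups were more than 1 log2 unit apart. The difference was -1.49 (SE 0.11, 95% interval -1.74 to -1.23), a 2.80-fold higher level in control, with an adjusted p of 0.00157 in limma. The other Cks1b probe set differed by -1.28 (adjusted p = 0.0072, limma) and was called too. Cks1b kept its call under all 16 alternative settings, with an adjusted p of at most 0.0148. Skp2, the partner of CKS1 in that ligase, belongs to the list of other regulators and was not called (difference -0.14, adjusted p = 0.590, limma). Cks2, the close paralog of Cks1b, read 9.79, 9.92 and 9.69 in the GHRH-KO livers and 10.16, 9.83 and 10.10 in the control livers. The groups overlapped, the difference of -0.23 (95% interval -0.54 to 0.08) was not called, and the other Cks2 probe set differed by -0.01.

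**Figure D2:**
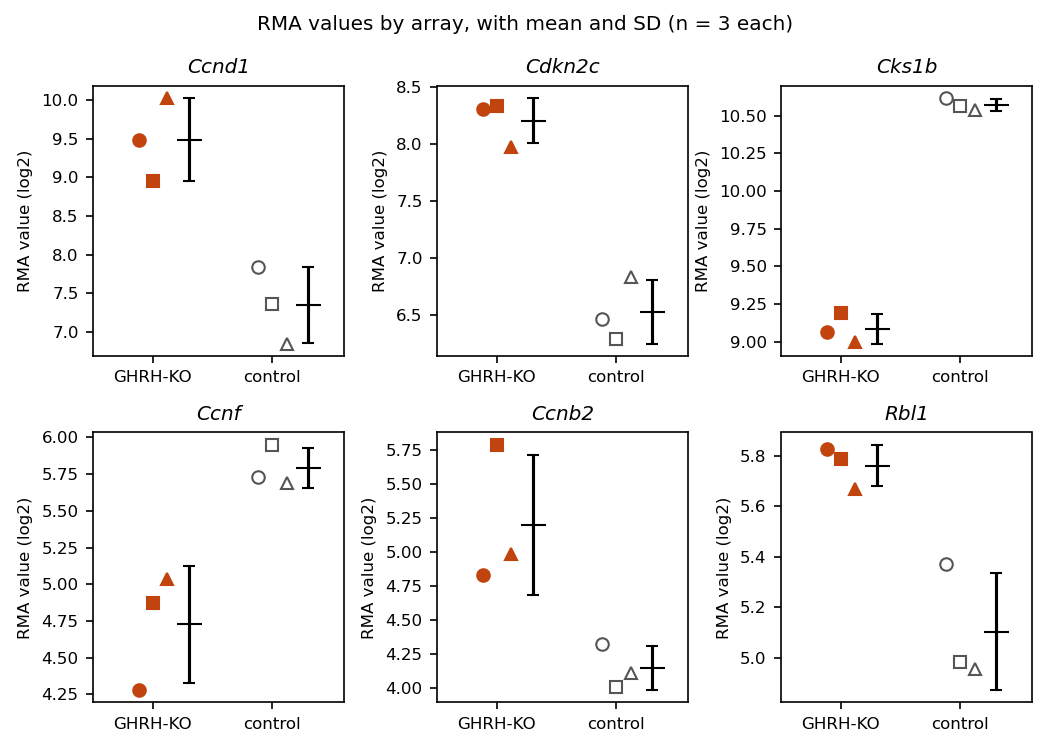
RMA values (log2 scale, vertical axes that do not start at 0 and differ between panels) of 6 members on the 3 GHRH-KO arrays (filled) and the 3 control arrays (open), and beside them the group means with SD bars. Ccnd1, Cdkn2c and Cks1b were called, and Ccnf, Ccnb2 and Rbl1, whose groups also lie apart, were not.

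Among the cyclins of S and G2/M phase, 2 differed in opposite directions without reaching the call. Ccnb2, an activator of CDK1 in mitosis, read 4.83, 5.79 and 4.98 in the GHRH-KO livers and 4.32, 4.01 and 4.11 in the control livers. Every GHRH-KO liver was above every control liver, and GHRH-KO replicate 5 stood highest. The measured difference was 1.06 (SE 0.25) with an adjusted p of 0.102 in limma. With all control arrays under the background mark, Ccnb2 was at least 1.37-fold higher, the mean of the GHRH-KO arrays set against the mark. Without GHRH-KO replicate 5 the measured difference was 0.76 and the bound 1.12-fold. With arrays weighted by their quality the difference was 0.85 and was called (adjusted p = 0.0411, limma). Ccnb2 passed the intensity filter only through its GHRH-KO arrays, since its control mean of 4.15 lay under the lowest mean kept, 4.64. Its p, its weighted call and its lack of overlap are therefore descriptions and not evidence of a rise. Ccnf, which encodes cyclin F, an F-box protein of an SCF ubiquitin ligase that binds no CDK, read 4.28, 4.87 and 5.04 in the GHRH-KO livers and 5.73, 5.95 and 5.69 in the control livers. Its groups did not overlap. The measured difference was -1.06 (SE 0.21, adjusted p = 0.0634, limma), and with GHRH-KO values under the background mark raised to it, Ccnf was at least 1.88-fold lower. Ccna2, the cyclin of S phase and G2, had overlapping groups and a difference of 0.01 (95% interval -0.30 to 0.32) by the probe set with the highest mean. Its other probe set, nearly as bright, differed by 0.63 (95% interval 0.12 to 1.15, adjusted p = 0.202, limma), with groups that did not overlap. The class median of 0.01 is the value of the first, so it rests on that choice.

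Genes that peak in G2 and mitosis often carry 2 promoter elements, the CCAAT box, which binds NF-Y, and the cell cycle homology region (CHR, TTTGAA), which binds the DREAM and MYB-MuvB complexes. The sequences upstream of Cks1b, Ccnb2 and Ccnf are shown because these genes are known to peak late in the cycle and differed here in both directions, and that of Cdkn2c because it rose. Each is the 250 bases before the start in RefSeq (GRCm38.p6), 5′ to 3′ on the gene's own strand, with matches to CCAAT or CHR on either strand in capitals. Cks1b lies at chr3:89418292-89418541 (minus strand), Ccnb2 at chr9:70421555-70421804 (minus), Ccnf at chr17:24251410-24251659 (minus) and Cdkn2c, at the upstream one of its 2 RefSeq starts, at chr4:109666757-109667006 (minus).
Cks1b: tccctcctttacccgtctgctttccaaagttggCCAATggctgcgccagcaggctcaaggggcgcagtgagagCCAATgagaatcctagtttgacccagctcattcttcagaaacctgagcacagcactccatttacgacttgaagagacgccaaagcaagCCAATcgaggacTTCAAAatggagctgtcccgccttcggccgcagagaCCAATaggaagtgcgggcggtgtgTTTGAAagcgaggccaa
Ccnb2: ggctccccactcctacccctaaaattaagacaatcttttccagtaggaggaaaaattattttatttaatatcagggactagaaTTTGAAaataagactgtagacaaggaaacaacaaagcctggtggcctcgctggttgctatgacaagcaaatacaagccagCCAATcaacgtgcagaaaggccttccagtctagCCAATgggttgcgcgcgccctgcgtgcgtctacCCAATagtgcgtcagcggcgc
Ccnf: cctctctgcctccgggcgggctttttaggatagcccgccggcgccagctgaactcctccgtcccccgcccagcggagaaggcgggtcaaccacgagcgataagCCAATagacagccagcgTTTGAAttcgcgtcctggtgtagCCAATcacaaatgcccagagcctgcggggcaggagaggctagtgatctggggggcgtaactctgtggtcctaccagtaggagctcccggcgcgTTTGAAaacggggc
Cdkn2c: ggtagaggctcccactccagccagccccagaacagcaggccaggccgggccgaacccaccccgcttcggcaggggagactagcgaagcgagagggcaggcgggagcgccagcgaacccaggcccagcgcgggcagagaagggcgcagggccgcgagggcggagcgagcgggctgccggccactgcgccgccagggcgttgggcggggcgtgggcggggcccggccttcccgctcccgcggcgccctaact

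The Cks1b window holds 4 CCAAT matches, the nearest 41 bases before the start, and 2 CHR matches, at 77 and 17 bases. The Ccnb2 window holds 3 CCAAT matches, at 87, 54 and 21 bases, and 1 CHR match at 167 bases, and the Ccnf window holds 2 of each, with CHR matches at 130 and 14 bases. The Cdkn2c window holds none of the letters searched. Across the 31 listed genes with an entry, CCAAT was found for 15 (48.4%), against 37.5% of 27025 genes in the same table, and CHR for 9 (29%), against 18.3%. The E2F letters (TTTCCCGC or TTTGGCGC, both strands) were found for 3 (9.68%), against 1.51%, and the FOXO letters (GTAAACA) for 2 (6.45%), against 3.54%. STAT5, the factor through which growth hormone signals in liver, was searched as TTCNNNGAA, found for 0 of the 31 genes and for 8.13% of all genes. A gene was counted when any of its windows held a match. Ccnd1, Ccnd2, Ccne2, Ccna2, Ccnh, Cdk5, Cdkn1c, Rb1 and E2f4 have no entry in that table and were not searched. The shares therefore say nothing about Ccnd1. A match is a description of letters, and no binding was measured.

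The CDKs themselves were not called in either direction. Of 8 kinases, 6 had negative differences, and the range was -0.67 to 0.46, or -0.33 to 0.47 without GHRH-KO replicate 5. Cdk4, the partner of D-type cyclins, read 7.40, 7.53 and 7.73 in the GHRH-KO livers and 7.84, 7.81 and 7.91 in the control livers. The GHRH-KO livers lay just below the control livers (difference -0.30, 95% interval -0.60 to -0.01, adjusted p = 0.262, limma). Its probe sets went against each other, with -0.47 for a second and 0.50 for the third, so that no direction can be given for Cdk4. Cdk6, the other partner of D-type cyclins, had a difference near 0 (95% interval -0.27 to 0.27) and -0.28 by its second probe set. Cdk5, a kinase best known from neurons, read 7.94, 7.0 and 8.08 in the GHRH-KO livers and 8.31, 8.43 and 8.28 in the control livers. All GHRH-KO livers lay below the control livers, with GHRH-KO replicate 5 about 1 log2 unit under the other 2, and the difference of -0.67 had an adjusted p of 0.264 in limma. Without GHRH-KO replicate 5 the difference was -0.33 (adjusted p = 0.286, limma).

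Cdk1, the kinase of mitosis, read 6.45, 6.55 and 6.70 in the GHRH-KO livers and 6.55, 5.76 and 6.02 in the control livers. Control replicate 1 lay among the GHRH-KO livers, and the difference of 0.46 (95% interval -0.03 to 0.95) was not called and was 0.28 without control replicate 2. Cdk2, the partner of E- and A-type cyclins, differed by -0.02 (95% interval -0.38 to 0.33). Among the kinases tied to transcription, Cdk8, of the mediator complex, read 9.72, 9.77 and 9.72 in the GHRH-KO livers and 10.06, 9.89 and 9.99 in the control livers. The groups lay apart by about 0.1 and the difference was -0.24 (adjusted p = 0.291, limma). Cdk9, of the elongation factor P-TEFb, read 9.40, 8.31 and 9.22 in the GHRH-KO livers and 9.52, 9.47 and 9.37 in the control livers. As with Cdk5, GHRH-KO replicate 5 was the lowest array, and GHRH-KO replicate 4 lay within the control range. The difference was -0.47, or -0.14 without GHRH-KO replicate 5. Cdk7, the CDK-activating kinase, had a difference of -0.28 (95% interval -0.63 to 0.06), and its 5 probe sets ran from -0.31 to -0.02.

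The other cyclins held no called gene and differed little. Ccng1, a target of p53, read 9.28, 9.53 and 9.35 in the GHRH-KO livers and 9.20, 8.67 and 9.27 in the control livers. The GHRH-KO livers were just above the control livers, and the difference of 0.34 had a 95% interval of -0.09 to 0.77 and was 0.15 without control replicate 2. The other Ccng1 probe sets differed by 0.12 and 0.16, both with overlapping groups. Ccng2, a cyclin that is raised in cells leaving the cycle, read 8.41, 8.82 and 8.03 in the GHRH-KO livers and 7.82, 8.04 and 8.08 in the control livers, with overlap. Its second probe set differed by -0.02, beside 0.44 for the first, which was 0.24 without GHRH-KO replicate 5. Ccnt1, the partner of CDK9, had groups that did not overlap, but by a difference of only -0.15 (95% interval -0.41 to 0.11). Ccnh, the partner of CDK7, Ccni, Ccnl1 and Ccnt2 had overlapping groups and differences between -0.11 and -0.02 by the probe set with the highest mean. Other probe sets went further, with 0.55 for a Ccnh probe set whose groups did not overlap (adjusted p = 0.240, limma), and 0.39 and -0.45 for the others tested of Ccni.

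The RB proteins were all positive and the E2F factors mixed, and none was called. Rbl1, which encodes p107, a repressor that pairs mainly with E2F4, read 5.83, 5.78 and 5.67 in the GHRH-KO livers and 5.37, 4.98 and 4.95 in the control livers. The groups lay apart, the difference was 0.66 (SE 0.14, 95% interval 0.32 to 0.999) and the adjusted p was 0.0841 in limma. With arrays weighted by their quality it was 0.60 and was called (adjusted p = 0.0479, limma). Rbl2, which encodes p130, the pocket protein of quiescent cells, read 8.51, 8.64 and 8.46 in the GHRH-KO livers and 8.46, 8.32 and 8.39 in the control livers. Its difference was 0.15 (95% interval -0.11 to 0.41), and its second probe set differed by -0.35. Rb1 differed by 0.18 with overlapping groups. E2f3, an activating E2F, read 6.60, 6.59 and 6.61 in the GHRH-KO livers and 7.19, 6.72 and 7.11 in the control livers. The GHRH-KO livers all lay below the control livers, and the difference of -0.40 (95% interval -0.75 to -0.06) was not called (adjusted p = 0.219, limma). E2f1 (-0.05) and E2f4 (0.15) had overlapping groups.

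The probe sets of a gene did not always go the same way. Of 20 members with more than 1 probe set tested, 11 had all probe sets on 1 side of 0 and 9 had probe sets on both sides. Those of Ccnd1 and Cks1b, called genes with several probe sets, stayed on 1 side. Those of Ccnd3, Ccnh, Ccni, Cdk4 and Rbl2, for example, crossed 0. Probe sets whose name ends in _x_at or _s_at can also bind related transcripts, and leaving them out changed no call among the members.

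**Figure D3:**
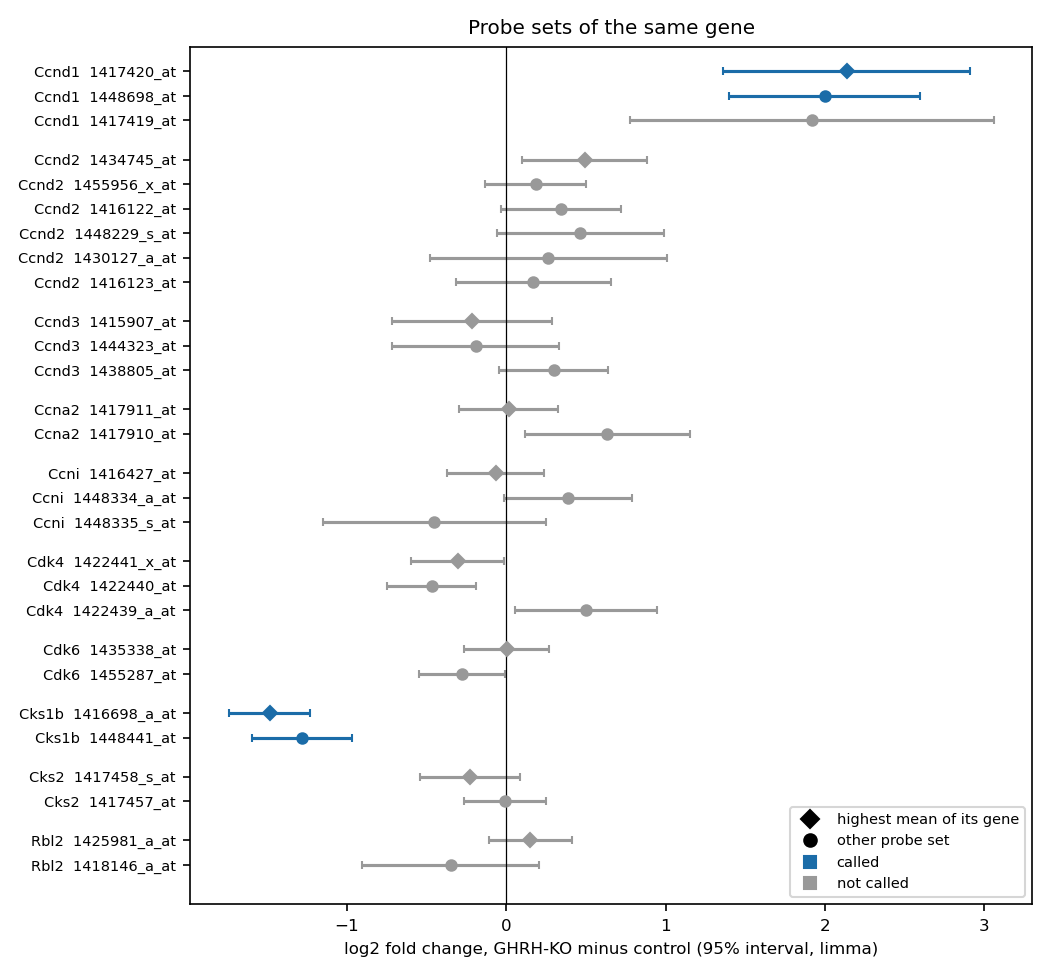
Log2 fold change (GHRH-KO minus control, horizontal axis) of each probe set tested for 10 members, with the 95% interval from limma. Diamonds mark the probe set with the highest mean, used in the text, and blue marks called probe sets: both of Cks1b, and 2 of the 3 of Ccnd1, all 3 of which are above 0.

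Around the members, a list of 53 other regulators of CDKs, RB and E2F held no called gene among the 45 tested. At an unadjusted p under 0.05, 3 were higher and 4 lower, where 9.15% and 10.1% of all genes were so. The median log2 fold change was -0.07, beside 0.003 over all genes. The count of lower genes was 0 without GHRH-KO replicate 5 or without control replicate 2. Wee1, a kinase that holds CDK1 inactive, had the largest difference of that list, with 7.48, 8.26 and 8.18 in the GHRH-KO livers and 6.68, 5.98 and 7.08 in the control livers. The groups did not overlap, and the difference of 1.39 was not called (adjusted p = 0.0904, limma). Of 16 tested p53 target genes, a list that holds Cdkn1a and Ccng1, none was called, and the median was 0.14. An unadjusted p under 0.05 was found for 3 higher and 2 lower genes, beside the same 9.15% and 10.1% of all genes. Gadd45a, a stress-induced inhibitor of the CDK1 kinase, differed by 1.23 and Plk2 by -0.72 (adjusted p = 0.184 and 0.0517, limma).

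E2F targets and mitotic genes, a list of genes of DNA replication and mitosis that also holds Ccne1, were mostly positive with no gene called higher. Of 27 tested out of 39 with a probe set, 23 had positive differences, and the median was 0.42, beside 0.003 over all genes. An unadjusted p under 0.05 was found for 9 higher and 1 lower, where 9.15% and 10.1% of all genes were so. The 9 include Mki67, Top2a and Nusap1, which passed the intensity filter only through their GHRH-KO arrays. Their control means of 4.55, 4.48 and 4.50 lay under the lowest mean kept, 4.64. The same genes are in the count of 23 and in the median, and could enter these only with a positive difference. The arrays of a group differed among themselves: the list's median deviation from the control mean was 0.14, 0.60 and 0.38 in GHRH-KO replicates 4, 5 and 6 and 0.23, -0.13 and -0.09 in control replicates 1, 2 and 3. GHRH-KO replicate 4 thus lay under control replicate 1. With both GHRH-KO replicate 5 and control replicate 2 left out, the list had a median of 0.16 and 3 genes were higher at an unadjusted p under 0.05. With 1 array left out, that count ran from 5 (without control replicate 3) to 15 (without control replicate 1, where 1 gene was called higher). Mki67, the proliferation marker, read 4.98, 6.16 and 5.38 in the GHRH-KO livers and 4.83, 4.72 and 4.09 in the control livers. Its control mean was under the background mark, GHRH-KO replicate 5 stood highest as it did for Ccnb2 and Ccne2, and the adjusted p was 0.193 in limma. Another 10 genes of the list, among them Bub1, Aurkb and Kif11, were at background in both groups. The 1 called gene, the replication factor Mcm10, fell by 1.55 on the log2 scale (adjusted p = 0.0263, limma), and no member of the list was called lower without GHRH-KO replicate 4, 5 or 6 or control replicate 2 or 3.

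**Figure D4:**
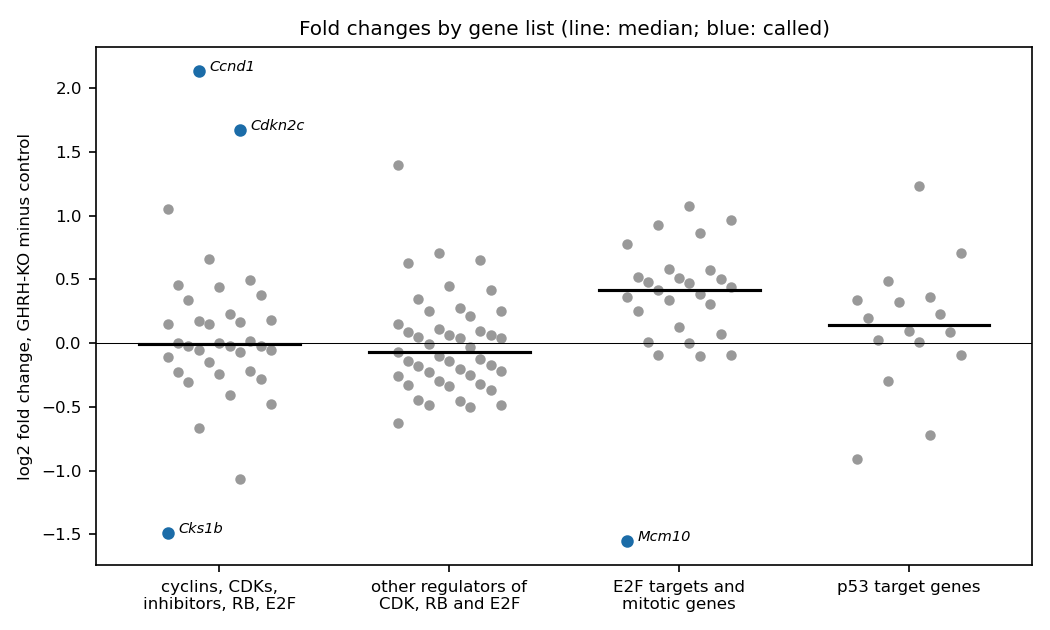
Log2 fold changes (GHRH-KO minus control, vertical axis) of the genes tested among the members and in 3 neighbouring gene lists. Each point is a gene, horizontal position within a list has no meaning, the bar is the median (-0.01, -0.07, 0.42 and 0.14 from left to right), and blue points with names are the called genes.

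The labelled tissue was checked by its markers. All 10 hepatocyte markers with a probe set, Alb and Apoa1 among them, were above the filter and none was called, with a median difference of 0.06. For 4 of them, all GHRH-KO arrays lay above all control arrays, where 12.7% of all genes did so. The largest of these differences was 0.16, for Apob. The summed level of the 10 ran from 151581 to 156143 in GHRH-KO and from 145667 to 150176 in control livers, without overlap. Markers of other cells differed between arrays. The median deviation of 12 Kupffer cell markers was 1.04, -0.36 and 0.38 in GHRH-KO replicates 4, 5 and 6 and 0.86, -0.51 and -0.47 in control replicates 1, 2 and 3, and their summed level (RMA values taken off the log scale) ran from 3247 to 9167 in GHRH-KO and from 3103 to 7834 in control livers. GHRH-KO replicate 4 and control replicate 1 were the high arrays of their groups. Cd68, also on that list, differed by 1.19 with no overlap (adjusted p = 0.155, limma). Of 11 lymphocyte markers, 7 were at background in both groups, so no fold is given for them. Cd2, Cd3g, Cd79a and Cd79b overlapped between groups, while Ms4a1, Nkg7 and Gzma had all GHRH-KO arrays above all control arrays. The 4 tested had a median of 0.42. The summed level of the 11 ran from 528 to 761 in GHRH-KO and from 352 to 638 in control livers. Of 7 neutrophil markers 4 were at background. The 3 tested were all positive with a median of 0.72, none was called, and none had groups that lay apart. Among them S100a9 differed by 0.84, with its control mean under the background mark. The summed level of the 7 ran from 181 to 257 in GHRH-KO and from 168 to 177 in control livers, without overlap. Endothelial, stellate cell and cholangiocyte markers held no called gene, with medians of 0.13, 0.14 and -0.54 over 10, 11 and 3 tested. Single markers differed more, with Pdgfrb at 0.90 and Ecm1 at -0.51 among the stellate cell markers, both with groups that did not overlap, and Col3a1 at 1.16 with overlap (adjusted p = 0.0884, 0.117 and 0.199, limma). Of 5 erythroid markers, Hba-a1 and Slc4a1 were at background in both groups, Alas2 fell by 1.36 on the log2 scale (adjusted p = 0.0219, limma), Tfrc differed by -0.43 and Klf1 by 0.57, and the summed level of the list ran from 1373 to 1605 in GHRH-KO and from 2557 to 3154 in control livers. Most of that gap was Alas2, since without it the sums were 676 to 739 in GHRH-KO and 778 to 1050.2 in control livers. The part of these cell types in the differences of Cks1b, Ccnb2 and the E2F targets was not tested.

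**Figure D5:**
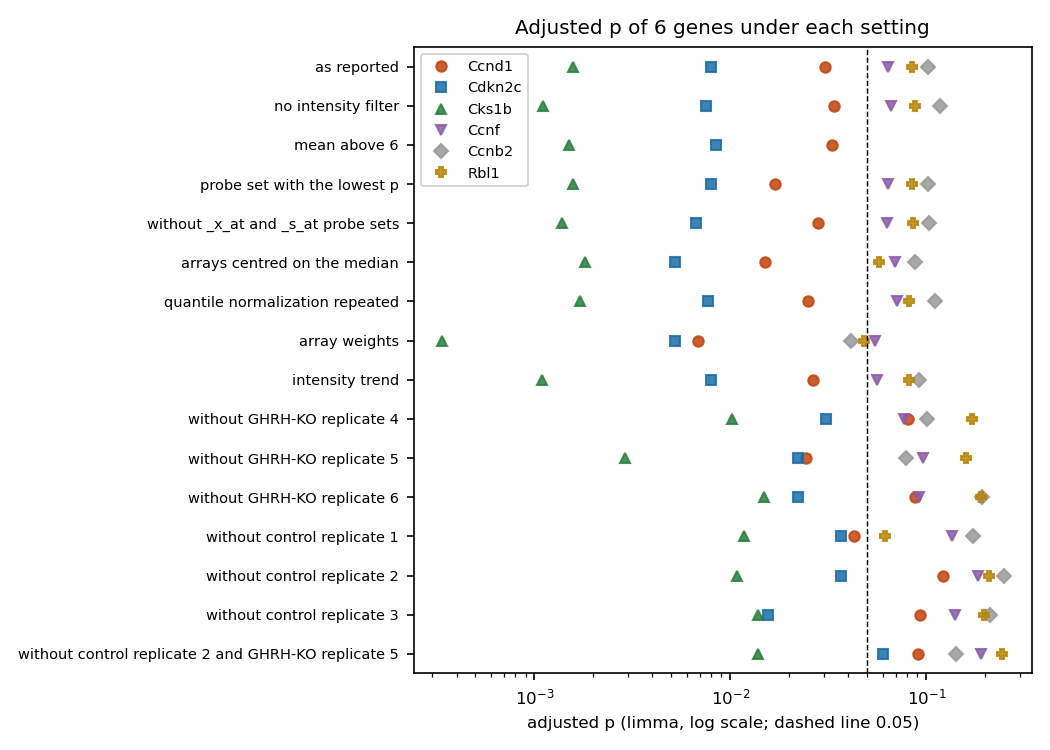
Adjusted p from limma (horizontal log axis, dashed line at 0.05) for 6 members under the reported setting and each alternative. Cks1b stays left of the line throughout, Cdkn2c crosses it only with both GHRH-KO replicate 5 and control replicate 2 left out, Ccnd1 crosses it in 5 of the settings that leave out arrays, and Ccnb2 and Rbl1 come under 0.05 only with array weights.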

How the data were processed

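Liver RNA was hybridized to 1 array per mouse. The authors processed the arrays by robust multichip average (RMA) and deposited log2 values for 45101 probe sets; the software version is not given in the sources used here. Testing covered the 25145 brightest probe sets by mean, the number the methods state for their own detection filter, after removal of 64 control probe sets. The lowest mean kept was 4.64. The array annotation gives 1 gene for 34945 probe sets, several for 932 and none for 9160. Gene names and chromosomes were read with the RefSeq table of GRCm38.p6.

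GHRH-KO minus control was fitted in limma 3.58.1 (lmFit, eBayes; R 4.3.3), with Benjamini-Hochberg adjustment over all probe sets tested. All 40 listed genes are accounted for, together with called genes of the gene lists and Ghrh. The members and lists were chosen with earlier results of these data known. The replicates are separate mice, the 2 groups share no replicate numbers, and an exact permutation test of 3 against 3 could not go below 0.1. The number of arrays limits the precision. On simulated data with 25145 probe sets for GHRH-KO minus control, the fit called 27 of 50 probe sets changed by 1, 28 of 50 changed by -1, 43 of 50 changed by 2 and 44 of 50 changed by -2. The simulated noise was normal, independent and equal on all arrays of a probe set. GHRH-KO replicate 5 and control replicate 2 spread more than that, so these rates may not hold for the real arrays. Motifs were searched in promoter windows from RefSeq, which cover 31 listed genes. Alternatives were no filter, a mean above 6, the probe set with the lowest p, no _x_at or _s_at probe sets, centred arrays, repeated quantile normalization, array weights, an intensity trend, no fold limit, and arrays left out singly or control replicate 2 with GHRH-KO replicate 5. Leaving out arrays for the gene lists and the lower bounds, and Alas2 for the erythroid markers, was added after the data were seen. Plots came from matplotlib 3.10.9 (Python 3.11.15).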

Additional observations from a re-analysis of the deposited data

How the results depend on the processing

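Of 568 values of the members under 16 alternatives, 560 kept their side of the threshold, 6 calls were lost, 2 were gained and none turned round. The count of members called lower, 1, was the same under every alternative. The count called higher, 2, was 4 with array weights, which added Ccnb2 and Rbl1, and 0 with both GHRH-KO replicate 5 and control replicate 2 left out, which lost Ccnd1 and Cdkn2c; it ran from 1 to 2 with 1 array left out. Array weights, which gave GHRH-KO replicate 5 a weight of 0.399 and GHRH-KO replicate 6 one of 3.35, also moved the calls over all genes to 248 higher and 288 lower, beside 98 and 121 as reported. Without control replicate 2 alone, 36 genes were higher and 46 lower. Centring the arrays turned the split over all genes to 129 higher and 117 lower. The median log2 fold change of the members, -0.01 as reported, was 0.12 by the probe set with the lowest p and 0.036 with centred arrays, where the median of all genes was 0.047, and it ran from -0.036 to 0.063 with 1 array left out. The value of 16 of the 36 members changed sign under at least 1 alternative, all of them with a size of at most 0.38 as reported. Dim members are bounded by background: Ccnb2 in control, Ccnf in GHRH-KO, and Cdkn2a, Cdkn2b and Cdkn3 in both. The causes of these shifts were not tested. No paired analysis was made. The replicate numbers only count the arrays, and the sample information used here names no litters by which to pair the mice.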
